A study of Mus musculus with 2 samples.

Results

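The EM-like CD8+ T cells are a cluster of 225 cells among 7314 immune and other kidney cells that were profiled by single-cell RNA sequencing in nephritic mice. EM stands for effector memory. The members were taken as every cell that the study's deposited cluster annotation assigned to this cluster, which gave 197 of 5470 cells in the WT library (3.60%) and 28 of 1844 in the Vsir-/- library (1.52%). Their transcripts summed to 823228 UMIs (unique molecular identifiers, each standing for 1 captured RNA molecule) in WT and 166037 in Vsir-/-. A WT cell held 734 to 17574 UMIs with a median of 3886, and a Vsir-/- cell held 2606 to 13554 with a median of 5236.

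Both libraries came from kidneys of C57BL/6 mice labelled as 8 weeks old, in which nephrotoxic nephritis had been induced. The animals were immunized with 200 µg of sheep IgG in complete Freund's adjuvant and received sheep serum against kidney antigens 4 days later, at 2 µl/g per the labels (the study's methods give another dose). The Vsir-/- animals lacked Vsir in all cells, a gene that encodes the immune checkpoint VISTA, and the WT animals carried it. There was 1 library per genotype, so no difference between genotypes could be tested, and every 95% interval given here covers counting error only.

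Effector memory CD8+ T cells patrol tissues and kill target cells with perforin and granzymes after recognizing peptide on MHC class I through an alpha beta T cell receptor and the CD8 coreceptor. Some T cells also carry receptors better known from natural killer (NK) cells, among them the Ly49 receptors, which are encoded by the Klra genes and bind MHC class I directly. A Ly49-bearing subset of CD8+ T cells that expresses the transcription factor Helios has been described in mice as regulatory, and gamma delta T cells are a separate lineage with their own receptor chains.

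Several properties set the libraries apart before any gene of interest was compared. Vsir itself was at 91.1 CPM (counts per 1000000 UMIs; 75 UMIs) in the WT cluster and at 6.02 (1 UMI) in the Vsir-/- cluster, and 8 Vsir UMIs were left among all 1844 Vsir-/- cells. The female-specific transcript Xist had 0 UMIs in the whole WT library and 16405 in the Vsir-/- library, whereas the Y-linked gene Ddx3y had 1779 in WT and 0 in Vsir-/-, so the libraries came from animals of different sex, although the study's methods describe male mice. By its label the WT library held sorted CD45+ cells, while the label of the Vsir-/- library names every type of kidney cell, although the study's methods describe a CD45+ sort. In addition, 195 gene symbols with at least 100 UMIs in WT had 0 in Vsir-/-, and some were older names of the same gene. Cd244, a receptor of NK cells, had 1865 UMIs in WT and 0 in Vsir-/-, while its newer name Cd244a had 0 in WT and 350 in Vsir-/-. Genotype, sex, labelled sort, library and gene annotation cannot be told apart in what follows. The libraries shared 5 cell barcodes, and 1 cell of this cluster carried such a barcode.

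T cell receptor and CD3 transcripts were found throughout the cluster in both libraries, and CD8 transcripts in part of it. All 197 WT cells and all 28 Vsir-/- cells had a UMI of Cd3d, Cd3e, Cd3g or a T cell receptor alpha or beta constant gene. NK cells had such a UMI in 85.0% of WT and 76.1% of Vsir-/- cells, and after thinning to 1000 UMIs per cell the shares in WT were 97.9% in the cluster and 49.0% in NK cells. Trac alone was found in 76.1% of the WT cluster and 16.7% of WT NK cells. Cd8a, which encodes the CD8 alpha chain, was detected in 100 WT cells (50.8%, 43.6% to 57.9%) and 14 of 28 Vsir-/- cells (30.6% to 69.4%). Cd8b1, which encodes the beta chain of the conventional CD8 coreceptor, was detected in 49 WT cells (24.9%, 19.0% to 31.5%) and 10 Vsir-/- cells (35.7%, 18.6% to 55.9%). In B cells, which should lack both, a UMI of Cd8a or Cd8b1 was found in 2.17% of WT cells (median 3426 UMIs) and 1.14% of Vsir-/- cells (median 3596.5 UMIs). Cd4 was detected in 5 of 197 WT cells (2.54%) but in 6 of 28 Vsir-/- cells (21.4%, 8.30% to 41.0%), against 0.516% and 1.14% of B cells. Of the other markers of the cluster, Ccl5 and Nkg7 were abundant in both libraries, while Klra7 and Gzmb were lower in Vsir-/- (values below). Ccl5, a chemokine of memory and effector T cells, was at 32165 CPM (26479 UMIs) in WT and 21567 (3581 UMIs) in Vsir-/-, and Nkg7, a cytotoxic granule protein, was detected in 100% of the cells of each library.

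The Ly49 receptor genes were far lower in the Vsir-/- cells. The 11 Ly49 genes in the table summed to 2152 UMIs in WT cells (2614 CPM, 2505 to 2727) and 28 UMIs in Vsir-/- cells (169 CPM, 112 to 244), a log2 ratio of Vsir-/- over WT of -3.95 (-4.55 to -3.42). Klra7, which encodes the receptor Ly49G, had 878 UMIs in WT (1067 CPM) and 2 in Vsir-/- (12.0 CPM), a log2 ratio of -6.47 (-9.52 to -4.61). Klra1 (Ly49A) had 527 UMIs in WT and 3 in Vsir-/-, with a log2 ratio of -5.15 (-7.43 to -3.59). These were the Ly49 genes with the most WT UMIs, and almost none of either was left in the Vsir-/- cells. Klra9 (Ly49I) had 386 and 9 UMIs, a log2 ratio of -3.11 (-4.25 to -2.17). Klra6 (Ly49F) had 170 UMIs in WT and 0 in Vsir-/-, so it was at least 11.4-fold higher in WT, counting 3 UMIs as the limit of a count of 0 in the cluster. Klra3 (Ly49C) had 108 and 1, and Klra5 (Ly49E) 59 and 4. The remaining members were rare in the cluster. Klra8 (Ly49H) had 15 and 6 UMIs, with a log2 ratio of 0.99 whose interval included 0 (-0.67 to 2.44). Klra4 (Ly49D) had 6 and 3 UMIs and Klra10 had 3 and 0, while Klra2 and Klra17 had 0 in both.

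A minimum of 20 UMIs was met by 7 Ly49 genes, of which 6 lay more than 2-fold lower in Vsir-/- and 1 (Klra8) more than 2-fold higher after 0.5 UMI was added to each count. Among all 5521 genes with at least 20 UMIs, 9.98% were past 2-fold lower and 6.03% past 2-fold higher, and the median log2 ratio was -0.02. The counts of list members past 2-fold given below are to be read against these shares. The median over the 7 Ly49 genes was -3.87, or -3.51 with Klra6 set at its bound. Because the WT library supplied most UMIs, a gene abundant in WT alone passed the minimum more easily than the reverse. The Ly49 genes resemble each other, so reads could be split between copies. Of the 91-base windows (the length of the RNA read) in the last 500 bases of annotated transcripts, 0 were shared with another Klra gene for Klra1, Klra5, Klra6 and Klra8, 4.85% for Klra3, 6.27% for Klra7, 11.8% for Klra9 and 14.9% for Klra10, so the counts of these last 4 genes are less certain.

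The NK cells of the same libraries were closer to each other in these transcripts. Klra7 was at 643 CPM in WT and 353 in Vsir-/- NK cells, and Klra9 at 438 and 361. Klra4, nearly missing from the EM-like CD8+ T cells, was at 552 and 586 CPM in NK cells. The Ly49 sum was 2957 CPM in WT NK cells and 1949 in Vsir-/- NK cells. Some members were past 2-fold lower in Vsir-/- NK cells too. Klra6 was at 56.7 CPM in WT and 1.97 in Vsir-/-, Klra1 at 160 and 78.9, and Klra8 at 732 and 316, with a log2 ratio of -1.21 (-1.45 to -0.98). In EM-like CD4+ T cells the Ly49 sum was 431 CPM in WT and 147 in Vsir-/-. Non-EM-like CD8+ T cells held 28.7 CPM in WT and 40.7 in Vsir-/-.

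The start-site regions of 3 Ly49 genes are shown because these genes were abundant in WT cells and nearly missing together in Vsir-/- cells. RefSeq (GRCm38.p6) gave entries for 11 of 13 Ly49 symbols, each running from 250 bases before to 50 bases after a start site on the minus strand of chromosome 6. The Klra7 window is chr6:130233273-130233572 (another start site of Klra7 lies at a lower coordinate), the Klra6 window chr6:130026905-130027204 and the Klra1 window chr6:130386825-130387124. Capitals mark 3 short words searched on both strands, TGTGGT (the RUNX core), GGTGTGA (a T-box half-site) and CTTTGA (a TCF and LEF core).
Klra7: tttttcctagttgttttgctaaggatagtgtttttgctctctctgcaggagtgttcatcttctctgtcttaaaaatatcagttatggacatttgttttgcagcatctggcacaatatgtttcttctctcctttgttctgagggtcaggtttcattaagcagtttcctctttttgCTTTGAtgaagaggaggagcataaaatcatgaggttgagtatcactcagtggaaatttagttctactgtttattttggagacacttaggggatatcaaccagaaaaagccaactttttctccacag
Klra6: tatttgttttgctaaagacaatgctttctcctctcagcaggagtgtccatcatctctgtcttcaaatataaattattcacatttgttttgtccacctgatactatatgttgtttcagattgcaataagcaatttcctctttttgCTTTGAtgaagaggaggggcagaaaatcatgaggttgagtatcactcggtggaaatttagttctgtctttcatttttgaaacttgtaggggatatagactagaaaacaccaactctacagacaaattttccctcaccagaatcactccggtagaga
Klra1: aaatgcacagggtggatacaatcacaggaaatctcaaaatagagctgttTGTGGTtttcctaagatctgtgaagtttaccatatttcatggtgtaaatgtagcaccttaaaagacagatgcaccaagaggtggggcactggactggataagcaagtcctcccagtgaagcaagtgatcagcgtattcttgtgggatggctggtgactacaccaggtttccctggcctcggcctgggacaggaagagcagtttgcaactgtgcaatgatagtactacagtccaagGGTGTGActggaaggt
The Klra7 and Klra6 windows were identical at 68.2% of aligned positions and shared a run of 30 bases around the CTTTGA word, whereas Klra1 was identical to them at 44.2% and 44.9%. CTTTGA stood in 16.0% of all 32851 promoter windows, TGTGGT in 16.8% and GGTGTGA in 3.98%. These matches describe the letters of the windows and were not linked to the counts.

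Other NK cell receptors followed the Ly49 genes in direction. Of 15 receptors with at least 20 UMIs, 10 were past 2-fold lower in Vsir-/-, 0 were past 2-fold higher and 5 lay within 2-fold, with a median log2 ratio of -2.21. The median was -1.39 with cells thinned to 1000 UMIs, -1.13 in cells with Cd8a or Cd8b1 and no Cd4, and -0.43 in cells with Cd8b1 and no Trdc. Ncr1, which encodes the activating receptor NKp46, had 244 UMIs in WT and 2 in Vsir-/- cells (296 and 12.0 CPM), a log2 ratio of -4.62 (-7.67 to -2.75). Klrb1c, which encodes NK1.1, had 231 and 3 UMIs (281 and 18.1 CPM). Klrk1, which encodes the stress-ligand receptor NKG2D, had 682 and 24 (828 and 145 CPM), and its log2 ratio was -2.52 (-3.17 to -1.93). Klre1, a partner chain of Ly49-related receptors, had 858 and 37 (1042 and 223 CPM). All 4 of these receptors were lower in Vsir-/- by more than their counting error.

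Klrb1a, Klrb1f and Klrc2 were also past 2-fold lower in Vsir-/-, Klrc2 with a log2 ratio of -2.40 (-3.87 to -1.25). The gap was smaller for some other receptors of the list. Klrd1, which encodes CD94, was at 999 CPM in WT and 416 in Vsir-/-, a log2 ratio of -1.26 (-1.64 to -0.91). Klrg1, a marker of differentiated effector cells, was at 353 and 247 CPM, with a log2 ratio of -0.52 (-1.03 to -0.04). Il2rb, which encodes a shared chain of the IL-2 and IL-15 receptors, was at 293 and 283 CPM, and Cd226, an activating receptor, at 209 and 235, and the intervals of both log2 ratios included 0. The count of Cd244 (116 and 0 UMIs) reflects the change of symbol described above, since Cd244a had 0 and 6. Without Cd244, 9 of 14 receptors were past 2-fold lower and the median was -1.81.

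Of the adaptors of innate receptors, Fcer1g and Tyrobp were past 2-fold lower in Vsir-/-. Fcer1g, which encodes the ITAM-bearing FcR gamma chain, had 969 UMIs in WT (1177 CPM, 1104 to 1254) and 23 in Vsir-/- (139 CPM, 87.8 to 208), a log2 ratio of -3.09 (-3.75 to -2.49). Tyrobp, which encodes DAP12, had 559 (679 CPM) and 19 (114 CPM), a log2 ratio of -2.57 (-3.31 to -1.91). In cells with Cd8a or Cd8b1 and no Cd4 the log2 ratios were -1.97 for Fcer1g and -1.10 for Tyrobp. In cells with Cd8b1 and no Trdc that of Tyrobp was -0.54, on 15 UMIs in WT and 3 in Vsir-/-. Fcer1g had 8 UMIs in these WT cells, and 1 of the cells held 14 of the Fcer1g and Tyrobp UMIs. In NK cells the log2 ratios of Fcer1g and Tyrobp were -0.31 (-0.41 to -0.21) and -0.39 (-0.48 to -0.30). In EM-like CD4+ T cells Fcer1g was at 880 CPM in WT and 201 in Vsir-/-. Hcst, which encodes DAP10, the adaptor of NKG2D, was at 1192 CPM in WT and 795 in Vsir-/-, a log2 ratio of -0.58 (-0.86 to -0.32). Signaling proteins of the T cell receptor lay within 2-fold in both directions. Zap70, a kinase recruited to the receptor, was at 158 and 108 CPM, with a log2 ratio of -0.54 (-1.34 to 0.17). Lck was at 480 and 602 CPM, Lat at 283 and 458, and Cd247 (CD3 zeta) at 162 and 259.

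**Figure D1:**
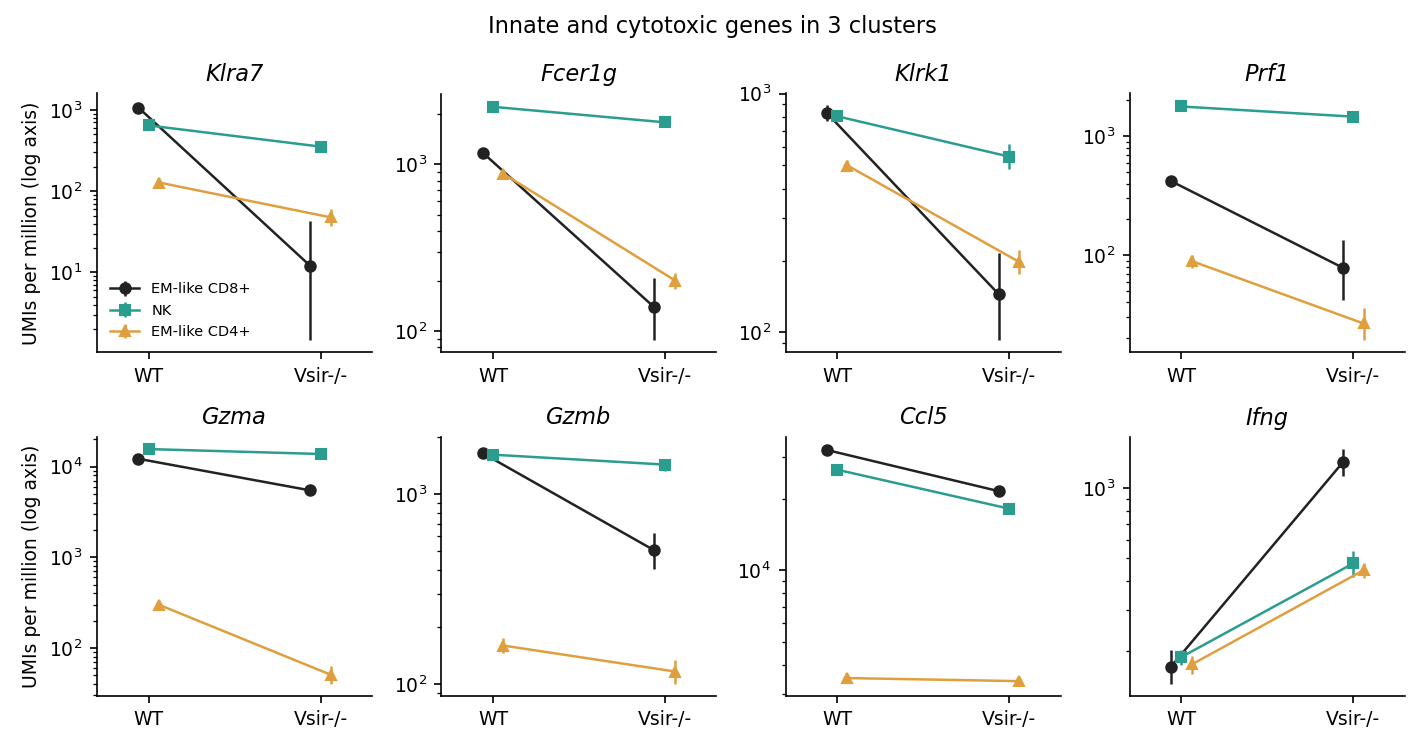
CPM on log axes for 8 genes in WT and Vsir-/- libraries, in EM-like CD8+ T cells (black circles), NK cells (green squares) and EM-like CD4+ T cells (orange triangles), with 95% Poisson intervals. Klra7, Fcer1g, Klrk1 and Prf1 are far apart between the libraries in EM-like CD8+ T cells and closer in NK cells, while Ifng is higher in Vsir-/- in all 3 clusters.

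The innate transcripts were spread over most WT cells and came from few Vsir-/- cells. At least 1 Ly49 UMI was found in 156 of 197 WT cells (79.2%, 72.8% to 84.6%) and 7 of 28 Vsir-/- cells (10.7% to 44.9%), a difference of -54.2 percentage points (-67.5 to -34.8). With each cell thinned to 1000 UMIs (3 WT cells, below that depth, were dropped), the shares were 66.0% and 7.14%. B cells of the Vsir-/- library, which should lack Ly49 transcripts, had a Ly49 UMI in 10.2% of cells (4.78% to 18.5%) and in 6.94% after thinning (2.29% to 15.5%), and the thinned share of the Vsir-/- cluster, which rests on 2 cells, had an interval of 0.88% to 23.5%. B cells of the WT library were at 4.54% and 1.37%. A Fcer1g or Tyrobp UMI was found in 146 WT cells (74.1%) and 12 Vsir-/- cells (42.9%), and after thinning in 61.3% and 17.9%. Vsir-/- B cells were at 54.5% and 22.2% for these adaptors, above the shares of the cluster in that library. In WT the B cell shares were 20.7% and 8.13%. In single Vsir-/- cells, 13 of the 28 Ly49 UMIs lay in 1 cell, which also had 12 Trdc UMIs, and 25 of the 42 Fcer1g and Tyrobp UMIs lay in another. The cell of each library holding the most UMIs of the gene or sum in question was also left out. The log2 ratio was then -4.78 for the Ly49 sum, -4.08 for Fcer1g and -4.14 for Tyrobp. WT cells often carried several Ly49 genes at once: 31 cells had UMIs of 1 gene, 34 of 2, 47 of 3, 33 of 4, 9 of 5 and 2 of 6, whereas no Vsir-/- cell had more than 2.

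**Figure D2:**
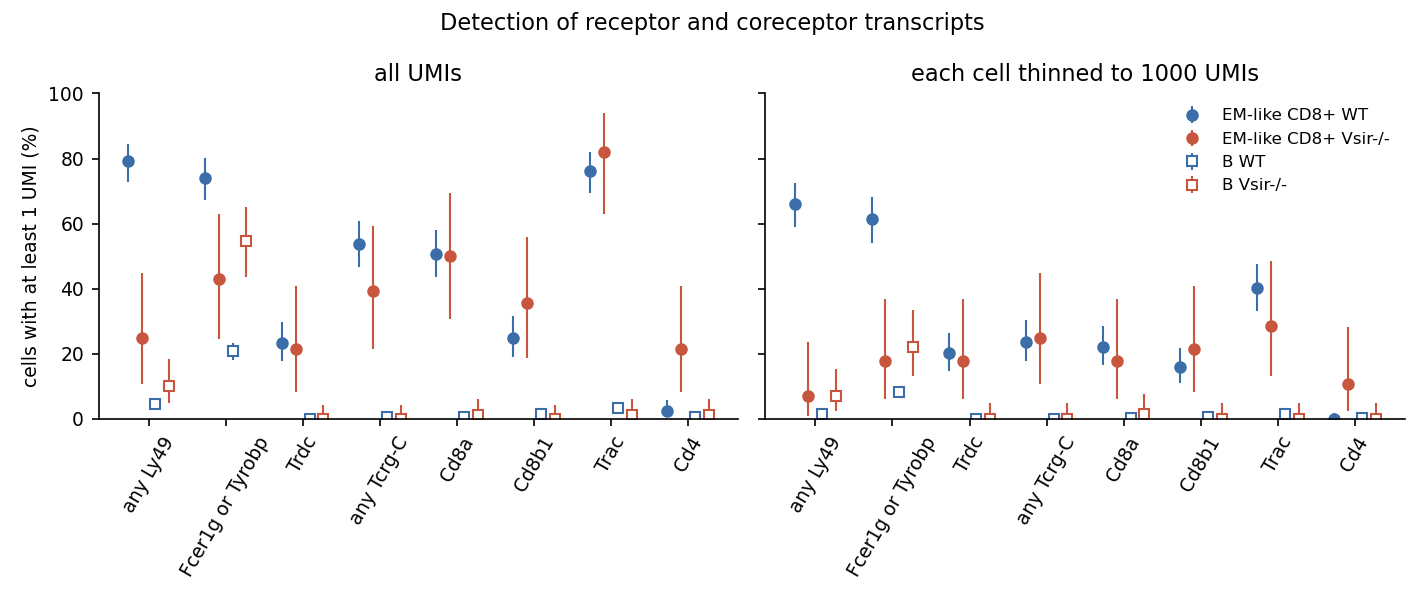
Percent of cells with at least 1 UMI, with 95% Clopper-Pearson intervals, for EM-like CD8+ T cells (filled circles) and B cells (open squares) in WT (blue) and Vsir-/- (red), from all UMIs (left) and after thinning each cell to 1000 UMIs (right). The intervals of the Ly49 and adaptor shares of the Vsir-/- cluster overlap those of Vsir-/- B cells, while Trdc, Tcrg-C, Cd8a and Cd8b1 shares overlap between genotypes and stand clear of B cells except for Vsir-/- Cd8a after thinning.

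The constant genes of the alpha and beta chains were close between the libraries, while the gamma and delta chain genes were mixed. Of 6 gamma delta receptor genes with at least 20 UMIs, 2 (Tcrg-C4 and Trdv2-2) were past 2-fold lower in Vsir-/- and 1 (Tcrg-C1) past 2-fold higher, with a median log2 ratio of -0.71. Trdc, the constant gene of the delta chain, had 321 UMIs in WT (390 CPM) and 37 in Vsir-/- (223 CPM), a log2 ratio of -0.81 (-1.34 to -0.31). It was detected in 46 WT cells (23.4%, 17.6% to 29.9%) and 6 Vsir-/- cells (21.4%, 8.30% to 41.0%), a difference of -1.92 percentage points (-14.8 to 17.0). B cells had a Trdc UMI in 0.103% of WT cells and in 0 of 88 Vsir-/- cells, where 3 counts would be 3.41%. Tcrg-C2, a constant gene of the gamma chain, was at 149 CPM in WT and 126 in Vsir-/-, with a log2 ratio of -0.24 whose interval included 0 (-0.98 to 0.43). Tcrg-C4 was at 113 and 18.1 CPM (93 and 3 UMIs), and Tcrg-C1 at 41.3 and 84.3. Trac, the alpha chain constant gene, was at 613 and 626 CPM and was found in 150 WT and 23 Vsir-/- cells.

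In the WT cluster, Cd8b1 was found in a smaller share of the cells with Trdc, Ly49 or adaptor transcripts than of the cells without them. Of the 46 WT cells with a Trdc UMI, 1 had a Cd8b1 UMI, against 48 of the 151 others, and 18 had a Trac UMI (39.1%) against 87.4% of the others. Of the 156 WT cells with a Ly49 UMI, 19 had Cd8b1 (12.2%), whereas 30 of the 41 without one did (73.2%). Counted from the other side, 19 of the 49 cells with Cd8b1 had a Ly49 UMI and 11 an adaptor UMI. Of the 146 WT cells with Fcer1g or Tyrobp, 11 had Cd8b1 (7.53%), against 38 of the 51 others (74.5%). Thinned to 1000 UMIs, 3.91% of Ly49-positive and 39.4% of Ly49-negative WT cells had Cd8b1. A Ly49 UMI was found in 39 of the 46 cells with Trdc, an adaptor UMI in 36 of them, and a Trac UMI in 117 of the 156 Ly49-positive cells (75.0%) against 80.5% of the Ly49-negative cells. Ly49 and the adaptors tended to occur together, with an adaptor UMI in 131 of 156 Ly49-positive cells and 15 of 41 Ly49-negative cells.

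For description, the cells were put into 3 classes chosen after these counts were seen. Cells with Trdc made up 46 of 197 in WT and 6 of 28 in Vsir-/-. Cells with Cd8b1 and no Trdc made up 48 in WT (24.4%) and 10 in Vsir-/- (35.7%). Cells with neither made up 103 in WT (52.3%, 45.1% to 59.4%) and 12 in Vsir-/- (42.9%, 24.5% to 62.8%). The classes rest on single UMIs, so cells with few UMIs can fall into the last class by missed detection, and the median depth in WT was 3373.5, 3920 and 4085 UMIs in the order given.

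The class without Trdc or Cd8b1 held most of the Ly49 signal in WT. There, 98 of 103 cells had a Ly49 UMI, 100 had Fcer1g or Tyrobp, 88 had Trac and 39 had Cd8a. Klra7 was at 1748 CPM, Fcer1g at 1717, Ncr1 at 458 and Ikzf2, which encodes Helios, at 535. In the WT class with Cd8b1, the same genes were at 27.6, 36.8, 18.4 and 41.4 CPM, and all 9 Ikzf2 UMIs of that class came from 1 cell, the deepest of the cluster with 17574 UMIs. The WT class with Trdc lay between for Klra7 at 608 CPM, and Fcer1g and Ikzf2 were at 1234 and 407. Ccl5 varied little among the WT classes, from 30329 to 35133 CPM, and Zeb2, a transcription factor of terminal effector cells, from 1055 to 1258.

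The corresponding Vsir-/- class had a different makeup. Of its 12 cells, 3 had a Ly49 UMI, 5 had an adaptor UMI, 11 had Trac and 6 had Cd4, and Ccl5 was at 13164 CPM. Cells with a Ly49 UMI and neither Trdc nor Cd8b1 were 98 of 197 in WT (49.7%, 42.6% to 56.9%) and 3 of 28 in Vsir-/- (10.7%, 2.27% to 28.2%). Within the class with Cd8b1, which resembles conventional CD8+ T cells, Klra7 had 6 UMIs in 48 WT cells and 0 in 10 Vsir-/- cells. Ly49 UMIs were in 19 of these WT cells and 1 of these Vsir-/- cells. The log2 ratio in this class was -0.36 for Ccl5 and 0.13 for Nkg7, and Ifng was at 143 CPM in WT and 856 in Vsir-/-.

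**Figure D3:**
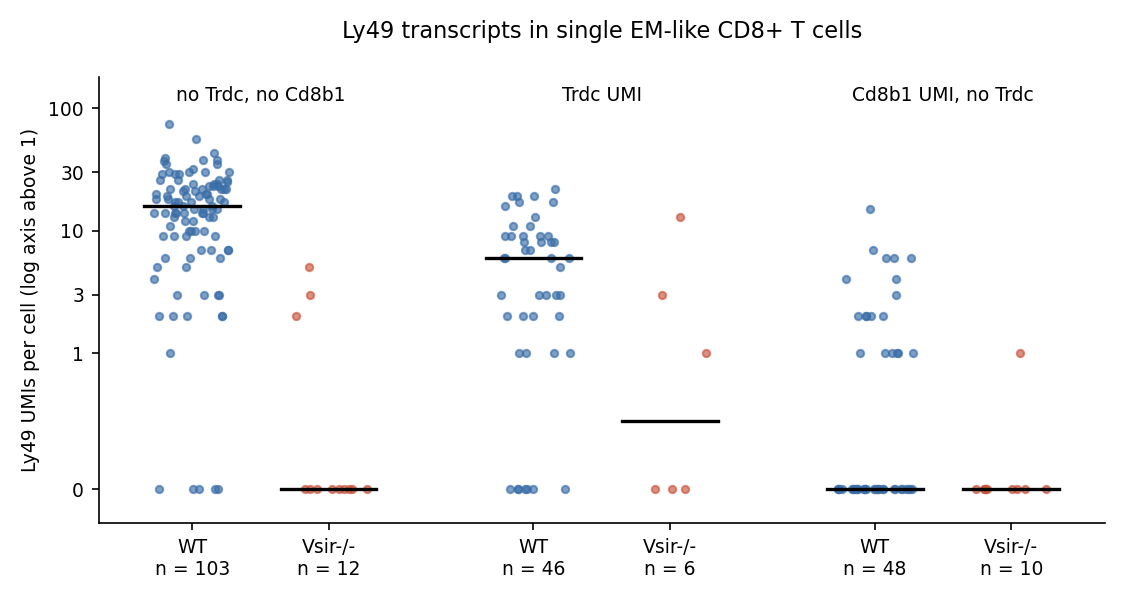
Ly49 UMIs per cell (linear from 0 to 1, log axis above) for the 3 classes of EM-like CD8+ T cells, WT in blue and Vsir-/- in red, with 1 point per cell and the median as a black bar. In the class without Trdc or Cd8b1, 98 of 103 WT cells lie above 0, against 3 of 12 Vsir-/- cells.

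Cytotoxic granule genes were lower in Vsir-/- cells for some members and close for others. Of 14 genes with at least 20 UMIs, 3 were past 2-fold lower, 1 (Gzmm) was past 2-fold higher on 19 and 8 UMIs, and 10 lay within 2-fold, with a median log2 ratio of -0.33. Over all genes tested, 9.98% were past 2-fold lower and 6.03% past 2-fold higher. Prf1, which encodes the pore-forming protein perforin, was at 419 CPM in WT (345 UMIs) and 78.3 in Vsir-/- (13 UMIs), a log2 ratio of -2.42 (-3.34 to -1.63). Gzmb, which encodes granzyme B, was at 1645 CPM (1354 UMIs) and 506 (84 UMIs), a log2 ratio of -1.70 (-2.04 to -1.38). Gzma, which encodes granzyme A, was at 12179 CPM and 5463, a log2 ratio of -1.16 (-1.26 to -1.06), and was detected in 97.5% and 75.0% of cells. The intervals of Prf1, Gzmb and Gzma lay wholly below 0, while those of the granzyme genes Gzmk and Gzmm included 0. Gzma was within 2-fold in cells with Cd8a or Cd8b1 and no Cd4 (-0.71) and in cells with Cd8b1 and no Trdc (-0.47), and in cells with Trdc Gzmb was at 1094 CPM in WT and 1247 in Vsir-/-. Nkg7 was at 3871 and 2999 CPM, with a log2 ratio of -0.37 (-0.51 to -0.23). Srgn, which encodes the granule proteoglycan serglycin, was at 1386 and 1379 CPM, and Fasl, which encodes the death ligand FasL, at 141 and 145. In NK cells Prf1 was at 1777 CPM in WT and 1460 in Vsir-/-, and Gzmb at 1615 and 1432. In EM-like CD4+ T cells Prf1 was at 89.2 and 26.6 CPM, and Gzmb at 160 and 117.

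Several chemokine genes were lower in Vsir-/- cells. Ccl5 had a log2 ratio of -0.58 (-0.63 to -0.53), close to the -0.55 found in NK cells. The ratio of Ccl5 was -0.19 without cells that had a Cd4 UMI and -0.36 in cells with Cd8b1 and no Trdc. In cells with Cd8a or Cd8b1 and no Cd4 it was -0.05. Ccl4, which attracts effector T cells and macrophages, was at 986 CPM in WT and 1120 in Vsir-/-, but at 525 and 1823 in cells with Cd8b1 and no Trdc and at 1302 and 461 in cells with neither. Its relative Ccl3 was at 256 and 54.2, a log2 ratio of -2.24 (-3.39 to -1.29), but at 96.7 and 95.1 CPM in cells with Cd8b1 and no Trdc. Ccl9 had 83 UMIs in WT and 0 in Vsir-/-, at least 5.58-fold higher in WT. Xcl1, which attracts cross-presenting dendritic cells, had 121 and 8 UMIs, although in cells with Cd8b1 and no Trdc it had 0 and 7. Of 5 chemokine genes tested by size, 3 were past 2-fold lower and 0 past 2-fold higher, with a median log2 ratio of -1.53. In the class with Cd8b1 and no Trdc the median over 3 of them was 0.06.

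Of 3 cytokine genes with at least 20 UMIs, Ifng and Ltb were past 2-fold higher in Vsir-/- and 0 were past 2-fold lower. Ifng encodes interferon gamma, the main cytokine of type 1 T cell responses. It had 141 UMIs in WT (171 CPM, 144 to 202) and 215 in Vsir-/- (1295 CPM, 1128 to 1480), a log2 ratio of 2.92 (2.61 to 3.24). It was detected in 38.6% of WT and 85.7% of Vsir-/- cells, with at most 9 UMIs in a WT cell and 52 in a Vsir-/- cell. A total of 3 Vsir-/- cells held at least 50% of its UMIs there. Its level in Vsir-/- was 282 CPM in cells with Trdc, 856 in cells with Cd8b1 and 1972 in cells with neither. In this last class the 6 cells with a Cd4 UMI held 123 of the 154 Ifng UMIs, and the level was 1063 CPM in the other 6. The log2 ratio was 1.34 (1.12 to 1.55) in NK cells. In the cluster it was 2.25 without cells that had a Cd4 UMI and 1.92 in cells with Cd8a or Cd8b1 and no Cd4.

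**Figure D4:**
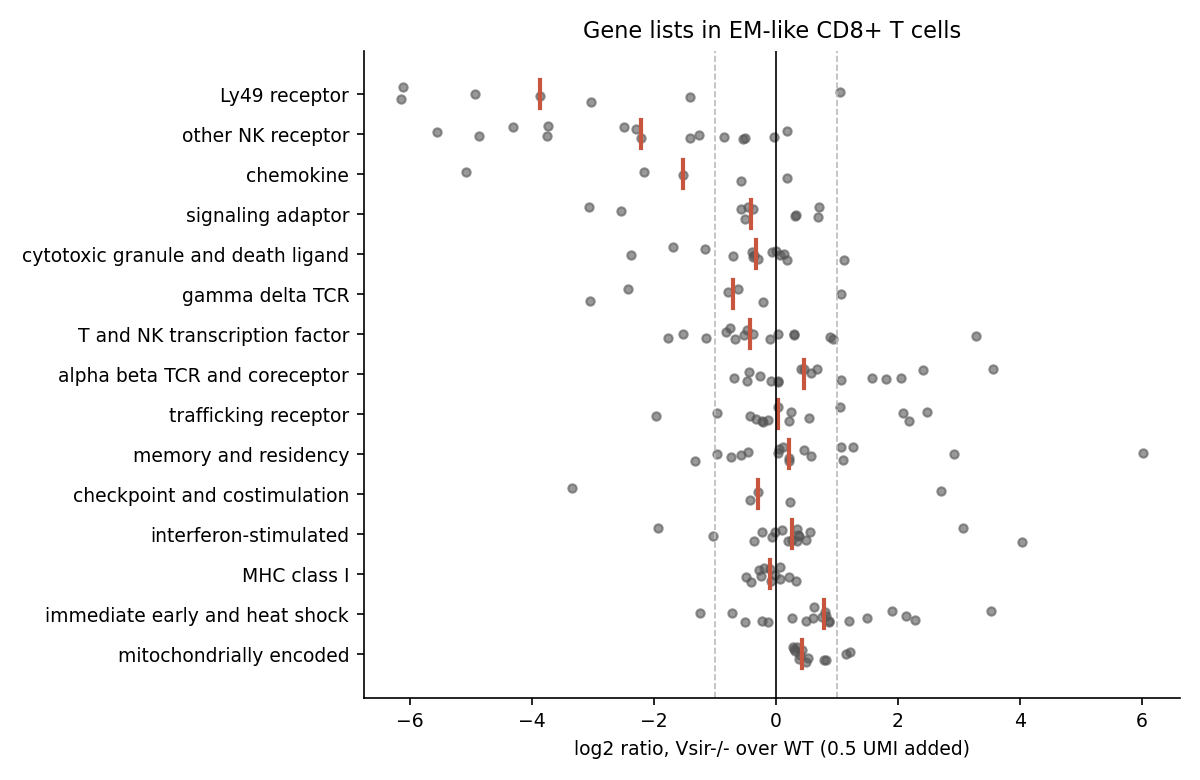
Log2 ratios of Vsir-/- over WT in EM-like CD8+ T cells, with 0.5 UMI added, for each gene with at least 20 UMIs in 15 gene lists, each point a gene and each red bar the median of its list. Dashed lines mark 2-fold. The Ly49 and other NK receptor medians lie farthest to the left, at -3.87 and -2.21.

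Of 16 transcription factors with at least 20 UMIs, 3 were past 2-fold lower, 1 was past 2-fold higher and 12 lay within 2-fold, with a median log2 ratio of -0.43. Among all genes tested 16% were past 2-fold in either direction, and in cells with Cd8b1 and no Trdc the median over 11 factors was 0.06. Tbx21, which encodes T-bet, the driver of type 1 effector fate, was at 228 CPM in WT and 126 in Vsir-/-, and Eomes, its relative in memory cells, at 41.3 and 36.1. Zeb2 was at 1121 and 506 CPM, a log2 ratio of -1.15 (-1.49 to -0.82). Ikzf2 was at 379 CPM (312 UMIs) and 108 (18 UMIs), a log2 ratio of -1.81 (-2.58 to -1.12), and was detected in 56.9% and 28.6% of cells. In NK cells Ikzf2 was at 35.1 and 37.5 CPM, and in EM-like CD4+ T cells at 338 and 139. Prdm1 (Blimp-1) had 35 and 2 UMIs. Maf, which encodes c-Maf, was the member past 2-fold higher, with 9 and 18 UMIs, and 16 of the 18 lay in Vsir-/- cells with neither Trdc nor Cd8b1. Tcf7, which encodes the memory-associated factor TCF-1, was at 58.3 and 42.2 CPM. Runx3, required for CD8 lineage genes, was at 287 and 349, and Klf2 was at 1647 and 1680.

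Of 17 alpha beta T cell receptor and coreceptor genes, 6 were past 2-fold higher in Vsir-/-, 0 past 2-fold lower and 11 within 2-fold. Their median log2 ratio was 0.46 in the whole cluster, 0.18 without cells that had a Cd4 UMI, -0.0043 in cells with Cd8a or Cd8b1 and no Cd4, and -0.27 in cells with Cd8b1 and no Trdc. Cd28, the main costimulatory receptor, was at 48.6 CPM in WT (40 UMIs) and 259 in Vsir-/- (43 UMIs), a log2 ratio of 2.41 (1.76 to 3.07). Cd5 and Cd6, which tune T cell receptor signals, were at 36.4 and 51.0 CPM in WT and both at 151 in Vsir-/-. For each, 19 of the 25 Vsir-/- UMIs lay in cells with neither Trdc nor Cd8b1, and in cells with Cd8b1 and no Trdc Cd5 was at 82.9 and 95.1 CPM and Cd6 at 152 and 95.1. Cd4 itself (6 and 15 UMIs), Cd27 and Ubash3a were the others. The constant genes and CD3 chains lay within 2-fold, and Cd8b1 had a log2 ratio of 0.57 (0.21 to 0.91) with 374 CPM in WT and 554 in Vsir-/-.

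Among 15 trafficking receptors with at least 20 UMIs, 4 were past 2-fold higher, 1 past 2-fold lower and 10 within 2-fold, with a median log2 ratio of 0.03. The shares over all genes tested were 6.03% past 2-fold higher and 9.98% past 2-fold lower. Ccr2, which guides cells to inflamed tissue, was at 29.2 CPM in WT and 163 in Vsir-/- (log2 ratio 2.48, 1.63 to 3.34). Cxcr6, a receptor of tissue T cells, was at 51.0 and 217 CPM (2.09, 1.40 to 2.76). Cxcr3 had 11 and 10 UMIs and Itgb1 was at 324 and 669 CPM. Cx3cr1, a receptor of circulating effector cells, was at 551 and 410 CPM. The level of Cx3cr1 was 1.58 CPM in the WT non-EM-like CD8+ T cells.

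Of 17 memory and residency genes, 5 were past 2-fold higher and 1 past 2-fold lower, against 6.03% and 9.98% of all genes tested. Ly6a (Sca-1) was at 75.3 CPM in WT and 572 in Vsir-/- (log2 ratio 2.93, 2.45 to 3.41). In cells with Cd8b1 and no Trdc it was at 152 and 301 CPM, and 73 of its 95 Vsir-/- UMIs lay in cells with neither Trdc nor Cd8b1. The others past 2-fold higher were Il7r, Il18r1, Rgs1 and Ly6c1, and 3 Vsir-/- cells held the 19 Ly6c1 UMIs. Itga1, which encodes the CD49a integrin of collagen-binding cells, was at 188 and 72.3 CPM. Cd44 was at 80.2 and 90.3 CPM and Cd69 at 401 and 548. Among 5 checkpoint genes with at least 20 UMIs, Vsir was past 2-fold lower and Icos past 2-fold higher (9 and 12 UMIs), while Pdcd1 had 4 and 5 UMIs.

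Some stress and immediate early genes were higher in the Vsir-/- cluster. Of 20 such genes, 6 were past 2-fold higher and 1 past 2-fold lower. Hspa1a, which encodes the inducible heat shock protein Hsp70, was at 98.4 CPM in WT and 1132 in Vsir-/-, and Nfkbia, an inhibitor of NF-kappa B that is itself induced by it, at 162 and 711. The list summed to 7359 CPM in WT and 12401 in Vsir-/- EM-like CD8+ T cells, to 7444 and 12036 in NK cells and to 7178 and 16561 in EM-like CD4+ T cells. The order of this sum was the opposite in B cells, at 10890 CPM in WT and 8429 in Vsir-/-, and in neutrophils, at 14025 and 10614. Hspa1a and Nfkbia themselves were still higher in Vsir-/- in both clusters. Hspa1a was at 183 and 362 CPM in B cells and at 37.5 and 48.9 in neutrophils. Nfkbia was at 283 and 416 CPM in B cells and at 1080 and 1921 in neutrophils. The median share of mitochondrial UMIs was 2.56% in WT and 3.29% in Vsir-/- cells of the cluster. Whether handling of the tissue plays a part was not tested.

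All 12 genes of the MHC class I list with at least 20 UMIs lay within 2-fold, with a median log2 ratio of -0.10. Of 17 interferon-stimulated genes, 2 were past 2-fold higher (Ifitm3 and Rsad2), 2 past 2-fold lower (Ifit1 and Irf8) and 13 within 2-fold. With 6.03% of all genes tested past 2-fold higher and 9.98% past 2-fold lower, these counts do not set the list apart. The 21 Rsad2 UMIs of Vsir-/- lay in 3.57% of the cells, that is in 1 cell.

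The genes with the largest difference over all other cells of the WT library, as a description of what the cluster is made of, joined innate and cytotoxic features. Among genes with at least 100 UMIs, the 15 leading ones were Kcnj8, Klra1, Klra6, Tcrg-C2, Trdc, Stard10, Itga1, Ncald, Klra7, S1pr5, Ccl5, Klra9, Gzmb, Ikzf2 and Cd160, with log2 differences from 4.04 to 2.50. Of these, Kcnj8, an ATP-sensitive potassium channel subunit, was at 128 CPM in WT and 78.3 in Vsir-/-, Stard10 at 141 and 102, and Ncald at 114 and 108. S1pr5, which directs NK and effector T cells out of tissue, was at 230 and 114 CPM. Several of the 15 genes were not particular to this cluster. Trdc was at 837 CPM and Tcrg-C2 at 264 in WT gamma delta T cells, against 390 and 149 in the WT cluster. In WT NK cells Gzmb was at 1615 CPM and Ccl5 at 26556, against 1645 and 32165. Others, such as Klra1 (640 CPM) and Kcnj8, were lower in every other WT cluster compared. The most abundant genes other than ribosomal and mitochondrial ones were Ccl5, Malat1, Tmsb4x, Actb, Gzma, Tpt1, Tmsb10, Fau, Eef1a1 and Cd52.

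By size of the ratio alone, among genes with at least 100 UMIs and 4 in each library, the 10 lowest in Vsir-/- were Fcer1g, Klra9, Tyrobp, Klrk1, Prf1, Klrc2, Ifi214, Samd9l, Klre1 and Ccl3. Klrc2, which encodes the activating receptor NKG2C, had 157 and 6 UMIs, and Samd9l, an interferon-inducible gene, 103 and 4. The 10 highest were Hspa1a, Ly6a, Ifng, Rpl13a, Hspa1b, Ndfip1, Nfkbia, S100a4, Pabpn1 and Plac8. S100a4, a calcium-binding protein of memory and migrating cells, was at 317 CPM in WT and 1253 in Vsir-/-. Rpl13a, a ribosomal protein gene, was at 711 and 4650 CPM in the cluster and at 598 and 3141 in NK cells, and it was also higher in Vsir-/- in B cells (673 and 2907) and neutrophils (150 and 439). Ndfip1 and Pabpn1 were likewise higher in Vsir-/- in all 6 other clusters compared.

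Markers of other cell types also moved between the libraries. The 38 kidney tubule genes summed to 262 CPM in WT, with 30 of them at 0 UMIs, and to 2969 CPM in Vsir-/-, with 5 at 0. Gpx3, a secreted enzyme of the proximal tubule, had 0 UMIs in WT and 78 in Vsir-/- EM-like CD8+ T cells, where it was detected in 92.9% of cells. Umod, specific to the thick ascending limb, had 0 and 42. The tubule sum was 498 CPM in WT and 5366 in Vsir-/- NK cells. The 11 neutrophil genes summed to 338 CPM in WT, led by S100a9 and S100a8 with 101 and 100 UMIs, and 102 in Vsir-/-, and all 4 of them with at least 20 UMIs were past 2-fold lower. The 14 B cell genes summed to 527 and 373 CPM, led by Cd74, and the defining gene Cd79a had 17 UMIs in WT and 0 in Vsir-/-. The 14 macrophage genes summed to 160 and 187 CPM, and the 8 endothelial genes to 51.0 and 512. Neutrophils also express Fcer1g and Tyrobp, and Csf3r, a defining neutrophil gene, had 4 UMIs in WT and 0 in Vsir-/- cells of the cluster. The part of free RNA in these levels was not tested.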

How the data were processed

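Kidneys were digested and libraries made with the 10x Chromium 3' chemistry, and the submitters' processing notes name Cell Ranger 3.1.0, R 4.0.3, Seurat 3.2.3 and the mouse build mm9. The authors deposited UMI counts per gene and cell, pooled over both libraries, with a cell table that holds their cluster annotation, the percent of mitochondrial UMIs and the count totals. Its map coordinates (score values deposited by the authors) were not used. Counts were taken as deposited, and doublets were not called here. The cluster's counts were summed per library and scaled to counts per 1000000 UMIs (CPM). Ratios were computed as log2 of Vsir-/- over WT, with exact conditional intervals for single genes and, for lists and counts past 2-fold, with 0.5 UMI added and a minimum of 20 UMIs. Levels have exact Poisson intervals and shares exact Clopper-Pearson intervals at 95%, computed with Python 3.11.15, numpy 2.4.6, scipy 1.17.1 and pandas 2.3.3. Differences of shares have Newcombe intervals. Thinning drew 1000 UMIs per cell without replacement. The procedure was checked on simulated data. Genes were named if they marked the cluster, belonged to the Klra family, ranked among the 6 members of most UMIs in 23 lists or a few fixed additions, led the cluster over other WT cells (15 genes), had the 10 highest or lowest ratios, or were among the 10 most abundant. Genes printed outside this rule (members past 2-fold, other cell types' markers, pairs of a list) and the 3 classes of cells were chosen after their values were seen. The members and lists were chosen with earlier results of these data known. A few genes are not reported here.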

Additional observations from a re-analysis of the deposited data

Results flagged for a closer look

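Of 168 genes of the fixed lists with enough UMIs in both clusters, 9 had a ratio of Vsir-/- over WT that lay below 0 in EM-like CD8+ T cells and above 0 in NK cells, or the reverse, with both counting intervals off 0. The difference between the clusters was not tested, and each library is a single sample. Ccl3 had a log2 ratio of -2.24 in EM-like CD8+ T cells and 1.10 in NK cells, the immediate early factor Egr1 -1.37 and 1.47, and the integrin Itga1 -1.38 and 0.91. Within the class with Cd8b1 and no Trdc, however, Ccl3 was at 96.7 CPM in WT and 95.1 in Vsir-/-. In the other direction, the tissue-homing receptor Cxcr6 was at 2.09 in EM-like CD8+ T cells and -1.41 in NK cells, the lymphotoxin gene Ltb at 1.01 and -0.78, the T cell adaptor Lat at 0.69 and -0.86, Cd247 at 0.68 and -0.44, Cd69 at 0.45 and -0.33, and the interferon-stimulated gene Ifi27l2a at 0.34 and -4.14. In cells with Cd8b1 and no Trdc, however, Lat was at 484 CPM in WT and 365 in Vsir-/-. Cd247 was at 189 and 238 CPM there.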

How the results depend on the processing

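No paired analysis was possible because each genotype had 1 library, and for the same reason no replicate could be left out. The classes without Cd4 and with Cd8b1, and the restriction to genes read in both libraries, were added after seeing the data, as was the tolerance of 0.25 (log2) for list medians. Across all settings run, the Ly49 median ranged from -5.26 to -3.04, the median of other NK receptors from -2.21 to -0.43, and the log2 ratio of Fcer1g from -4.08 to -1.97. Values that moved are listed by setting, as log2 ratios unless counts, and the cause was not tested.

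With a minimum of 50 UMIs, 76 genes were past 2-fold higher and 200 lower (333 and 551 with the minimum of 20). The medians were -4.40 (Ly49) and -1.82 (checkpoint, 2 genes, of which 1 was Vsir itself). With a minimum of 1 UMI, 2867 were higher and 1429 lower, and the medians were -1.05 (chemokine), -3.04 (Ly49), -1.32 (other NK receptor) and 0.72 (checkpoint). With 1 UMI added, the Ly49 median was -3.46. With cells thinned to 1000 UMIs, 126 were higher and 232 lower, and the medians were -0.82 (cytotoxic), -1.24 (chemokine), -1.39 (other NK receptor), 0.0529 (alpha beta TCR), -0.11 (memory), 0.0209 (checkpoint, 1 gene), -0.28 (interferon) and -0.35 (MHC class I), with Ccl5 at -0.45 and Nkg7 at -0.62. In cells with Cd8a or Cd8b1 and no Cd4, 212 genes were higher, and the medians were -1.26 (chemokine), -0.31 (trafficking), -1.13 (other NK receptor), -0.14 (adaptor), -0.26 (gamma delta TCR), -0.0043 (alpha beta TCR), -0.0824 (transcription factor), -1.69 (checkpoint, 3 genes) and -0.29 (interferon), with Ccl5 at -0.0524, Nkg7 at -0.19, Trdc at -0.17, Fcer1g at -1.97 and Tyrobp at -1.10. In cells with at most 5% mitochondrial UMIs, the Ly49 median was -5.26 and Ccl5 was at -0.67. With genes read in both libraries, the median of other NK receptors was -1.81. In cells with Cd8b1 and no Trdc, 10 of them in Vsir-/-, the chemokine median turned positive at 0.0572 and Nkg7 at 0.13, and the other medians were -0.28 (trafficking), -0.43 (other NK receptor), -0.10 (adaptor), -0.0711 (gamma delta TCR, 1 gene), -0.27 (alpha beta TCR), 0.06 (transcription factor) and -1.25 (checkpoint, 2 genes), with Ccl5 at -0.36, Gzmb at -1.22 and Tyrobp at -0.54. Without cells with Cd4, the medians were -1.09 (chemokine), -3.43 (Ly49), -1.82 (other NK receptor), -0.34 (gamma delta TCR), 0.18 (alpha beta TCR), -0.12 (transcription factor) and -0.87 (checkpoint, 4 genes), with Ccl5 at -0.19 and Cd8b1 at 1.06. Without the cell of each library with the most UMIs of the gene or sum in question, Fcer1g was at -4.08, Tyrobp at -4.14 and the Ly49 sum at -4.78. With at least 2 UMIs per cell, the share with Fcer1g or Tyrobp differed by -50.2 percentage points. For Ifng (2.92 in the whole cluster) the ratio was 2.59 after thinning to 1000 UMIs, 1.92 in cells with Cd8a or Cd8b1 and no Cd4, 2.58 in cells with Cd8b1 and no Trdc and 2.25 without cells with Cd4. For Gzma (-1.16) it was -0.71, -0.47 and -1.01 in these last 3 sets of cells. It was -1.37 without the cell of each library with the most Gzma UMIs. Medians that lay within 2-fold in the whole cluster (alpha beta TCR, transcription factor, trafficking, memory, interferon and checkpoint) changed sign under some of these settings. Scaling without ribosomal, mitochondrial and tubule genes (run on gene counts, list medians and single genes), centring on all genes (list medians) and thinning to 2000 UMIs (6 shares of cells) left the values they were run on inside their tolerance or interval. With 28 Vsir-/- cells, counting error alone left the difference in the share of cells with Trdc anywhere from -14.8 to 17.0 percentage points.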

Other observations

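Variable segments of the T cell receptor genes were read in a minority of the EM-like CD8+ T cells. Trgv2, a gamma chain segment, stood out with 72 UMIs in 50 of 197 WT cells (25.4%) and 9 UMIs in 8 of 28 Vsir-/- cells (28.6%), while in WT NK cells it was at 0.27 CPM against 87.5 in the WT cluster. Of the 72 WT UMIs, 23 lay in cells with Trdc, 9 in cells with Cd8b1 and no Trdc, and 40 in cells with neither. Trdv2-2, a delta chain segment, had 20 UMIs in 11 WT cells and 0 in Vsir-/- cells. Alpha chain segments were found in 27 WT cells over 16 segments, with Trav13-1 the most frequent in 8 cells, and beta chain segments in 19 WT cells, with Trbv12-2 in 8. No beta chain segment co-occurred with another in a WT cell, and 2 WT cells had UMIs of 2 or more alpha chain segments. These counts are too sparse for an account of clones.

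The 12 cell cycle genes summed to 1467 CPM in WT and 1765 in Vsir-/- EM-like CD8+ T cells, with Hmgb2 the most abundant, and to 1474 and 3480 CPM in NK cells. Among 5 other WT clusters compared (B cells, neutrophils, gamma delta T cells, EM-like CD4+ and non-EM-like CD8+ T cells) the sum ranged from 619 to 1215 CPM. Of 7 members with at least 20 UMIs, Mki67 and Pcna were past 2-fold higher in Vsir-/-, and 0 were past 2-fold lower. The interval of the Mki67 log2 ratio included 0 (-0.07 to 2.31), and that of Pcna did not (0.44 to 1.67). Of the 13 mitochondrially encoded genes, 2 (mt-Nd6 and mt-Atp8) were past 2-fold higher in Vsir-/-, and the median log2 ratio of the list was 0.43. The interval of mt-Nd6 included 0 (-0.58 to 2.56), and that of mt-Atp8 did not (0.41 to 1.93). Over all genes tested, 6.03% were past 2-fold higher and 9.98% past 2-fold lower.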
